A study of Mus musculus with 3 samples.

Results

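Secreted Wnt antagonists are proteins that leave the cell and block Wnt signals outside it. The 10 genes described here are Wif1, Notum, Dkk1, Dkk2, Dkk3, Dkk4, Sfrp1, Sfrp2, Sfrp5 and Frzb. They were taken by gene name from a table of 51826 mouse genes, in which each name matched 1 row. All 10 were measured, meaning that they had at least 20 counts in at least 1 library, as did 18074 genes in all. RNA came from the spinal cord of C57BL/6 mouse embryos at embryonic day 13.5, with 1 library for each of 3 genotypes. The dE3 library came from Nestin-Cre;Ctnnb1-floxed(Ex3) embryos, in which Cre removes exon 3 of Ctnnb1, and the labels call it gain of function. The cKO library came from Nestin-Cre;Ctnnb1-floxed(Ex2-6) embryos, in which exons 2 to 6 are removed, and the labels call it loss of function. The WT library is labelled wild type, with no Cre or floxed allele named. Nestin-Cre is used to recombine neural progenitors and the cells they give rise to, and these data do not show in which cells of the cord it acted. How many embryos went into a library is not stated. With 1 library per genotype no difference below has a replicate check and no p-value can be given. The intervals cover counting error only, and the values compare these libraries.

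Wnt proteins are lipid-modified signals that bind Frizzled receptors together with the co-receptors LRP5 and LRP6. Receptor binding keeps β-catenin, the product of Ctnnb1, from being degraded, and β-catenin then acts with TCF/LEF transcription factors in the nucleus. The antagonists act before that step. WIF1 and the SFRP proteins, FRZB among them, bind Wnt proteins. NOTUM is an enzyme that cleaves off their lipid. DKK1, DKK2 and DKK4 bind LRP5 and LRP6, while DKK3 is a divergent family member that is not a typical LRP ligand. Several of these genes are themselves known targets of Wnt/β-catenin signalling in vertebrates. In the developing spinal cord Wnt ligands made at the dorsal midline act on dorsal progenitors.

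Levels between libraries are given as CPM, the counts of a gene scaled to the same library total after TMM normalization. Levels between genes are given as the authors' TPM, which divides by transcript length. Totals were 34790053 (dE3), 33048837 (cKO) and 32167470 (WT) estimated counts. A gene was called higher or lower where the ratio of CPM was at least 2 in either direction and its 95% counting interval excluded 1. Ctnnb1 itself stood at 461 CPM in dE3, 422 CPM in cKO and 544 CPM in WT, a gene total that also counts the exons outside the deleted parts. Neuron markers held a near equal summed level in the 3 libraries, at 5301 CPM in dE3, 5373 CPM in cKO and 5362 CPM in WT. Single markers differed in both directions, with 0 of 8 called. In dE3, cKO and WT, Map2 had 1431, 954 and 1050 CPM, and Stmn2 753, 1026 and 1025 CPM. The library names carry the tag L2 for dE3 and WT and L3 for cKO, so this tag and the cKO genotype cannot be told apart.

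Promoter sequence was looked up because TCF/LEF factors recognise short sites with the core CAAAG, and because β-catenin differs between the libraries by design. RefSeq entries (GRCm38.p6), each with 250 bases before and 50 bases after the annotated start, matched 6 of the 10 genes: Wif1, Dkk1, Dkk2, Sfrp2, Sfrp5 and Frzb. The 4 of them with a match are shown, 5′ to 3′ on the strand of the gene, with every CAAAG or its reverse complement CTTTG in capitals. Wif1, Dkk1 and Dkk2 were called higher in dE3 than in WT and Frzb was not. The windows are chr10:121033754-121034053 on the plus strand for Wif1, chr19:30549447-30549746 on the minus strand for Dkk1, chr3:132085042-132085341 on the plus strand for Dkk2, and chr2:80447347-80447646 on the minus strand for Frzb.
Wif1: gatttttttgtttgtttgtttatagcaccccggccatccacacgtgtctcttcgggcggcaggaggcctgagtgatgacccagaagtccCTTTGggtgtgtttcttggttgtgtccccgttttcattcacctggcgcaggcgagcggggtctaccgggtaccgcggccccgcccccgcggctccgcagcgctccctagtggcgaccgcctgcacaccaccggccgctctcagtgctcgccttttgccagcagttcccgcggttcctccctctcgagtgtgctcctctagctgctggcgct
Dkk1: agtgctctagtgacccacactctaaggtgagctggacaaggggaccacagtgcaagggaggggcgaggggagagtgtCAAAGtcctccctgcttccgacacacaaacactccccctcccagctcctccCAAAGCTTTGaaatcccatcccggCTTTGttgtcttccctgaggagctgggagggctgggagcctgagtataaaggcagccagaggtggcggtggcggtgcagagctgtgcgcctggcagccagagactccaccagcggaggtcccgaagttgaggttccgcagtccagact
Dkk2: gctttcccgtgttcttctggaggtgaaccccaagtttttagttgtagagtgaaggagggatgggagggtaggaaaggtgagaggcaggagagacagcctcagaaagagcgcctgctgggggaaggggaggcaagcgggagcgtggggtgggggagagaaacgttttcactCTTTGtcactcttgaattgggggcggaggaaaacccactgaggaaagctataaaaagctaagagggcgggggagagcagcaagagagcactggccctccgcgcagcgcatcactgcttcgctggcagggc
Frzb: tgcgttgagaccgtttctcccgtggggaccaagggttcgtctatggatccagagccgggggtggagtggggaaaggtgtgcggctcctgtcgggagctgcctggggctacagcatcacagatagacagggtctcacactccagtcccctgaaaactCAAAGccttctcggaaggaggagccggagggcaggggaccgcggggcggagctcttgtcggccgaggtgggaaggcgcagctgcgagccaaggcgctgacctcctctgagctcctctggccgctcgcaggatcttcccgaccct
The Wif1 window held 1 match, on the minus strand at 161 to 157 bases before the start. The Dkk1 window held 4 matches, 2 of which were also the longer TCAAAG, at 174 to 169 bases before the start on the plus strand and 117 to 112 bases on the minus strand. The Dkk2 window held 1 match, at 80 to 76 bases on the minus strand. The Frzb window held 1 match, which was also TCAAAG, at 95 to 90 bases on the plus strand. Neither the Sfrp2 nor the Sfrp5 window held one. Every TCAAAG contains a CAAAG, so both searches count it. On either strand CAAAG occurs in 53.9% of 32851 RefSeq mouse promoters of the same length and TCAAAG or its reverse complement in 16.0%. A match describes the letters of this window, and these data hold no measurement of binding there. The deposited gene start lies upstream of the RefSeq start by 44 bases for Wif1, 169 bases for Dkk1 and 229 bases for Frzb. For Dkk2 both starts are at the same base. The Frzb match, and every Dkk1 match except that at 174 to 169 bases, therefore lie inside the gene as deposited.

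The dE3 library held more antagonist RNA than the WT library, most of it from Wif1 and Notum. Against WT, 5 of the 10 genes were higher in dE3 (Wif1, Notum, Dkk1, Dkk2 and Dkk4), 0 were lower and 5 were neither. Over all measured genes 6.52% were called higher and 3.78% lower in that comparison. The median log2 ratio was 1.01 over the 10 genes, with Dkk4 at its bound, and 0.00 over all measured genes. In cKO against WT, 2 of the 10 were higher (Notum and Sfrp5), 0 were lower and 8 were neither, against 3.48% higher and 3.41% lower over all measured genes. The median log2 ratio was 0.32 over the 9 genes with a ratio and 0.00 over all measured genes. In dE3 against cKO, 4 were higher (Wif1, Notum, Dkk2 and Dkk4), 2 were lower (Sfrp2 and Frzb) and 4 were neither, against 6.62% and 4.38% over all measured genes. Both mutants are set against the same WT library, so those comparisons share its counting error.

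**Figure D1:**
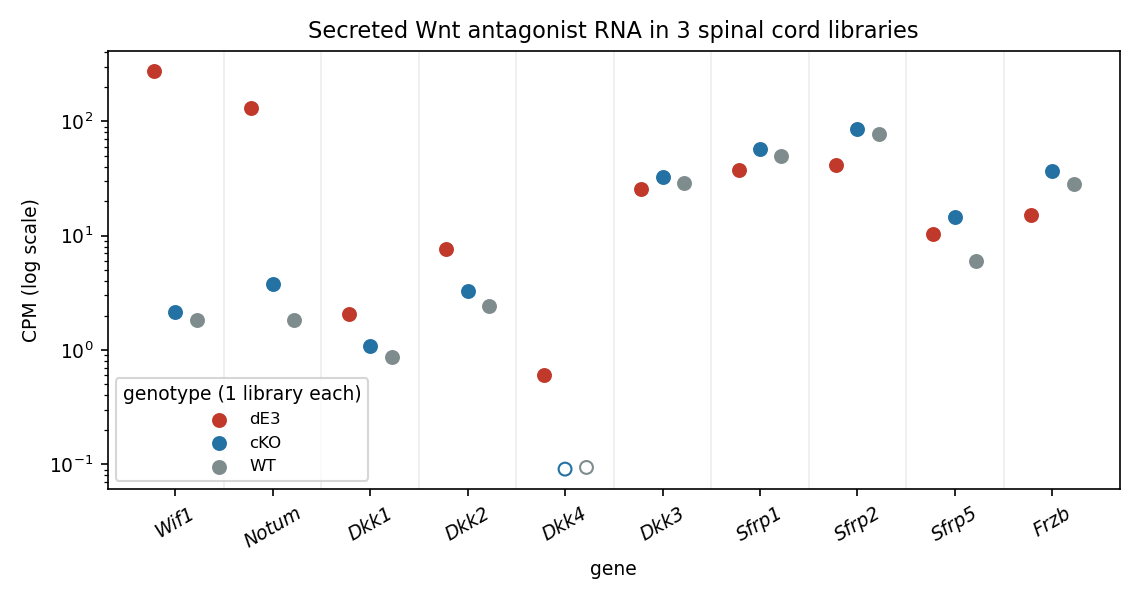
Level of each secreted Wnt antagonist gene in CPM on a log axis, with 1 point per library (dE3, cKO, WT); open circles mark a count of 0, drawn at the floor of 3 counts. Wif1 and Notum stand at 277 and 131 CPM in dE3 and below 4 CPM in cKO and WT, while Sfrp1, Sfrp2 and Frzb are lowest in dE3.

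Wif1 (ENSMUSG00000020218, chromosome 10, 121033960 to 121100650, plus strand, GRCm38) binds Wnt proteins through its WIF domain. It had 9708 counts in dE3, 71 counts in cKO and 58 counts in WT, or 277, 2.15 and 1.82 CPM in that order. The dE3 library thus stood far above the other libraries, which were close to each other. The CPM ratio was 153 in dE3 against WT (95% counting interval 118 to 201) and 129 in dE3 against cKO (102 to 165). In cKO against WT it was 1.18 (0.825 to 1.71), an interval that includes 1. By log2 ratio of dE3 against WT, Wif1 ranked 2 among the 18074 measured genes.

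Nearly all Wif1 counts of dE3 came from the full-length coding transcript. Wif1-201 (10 exons, 2294 bases) took 9559 counts in dE3, 49 counts in cKO and 57 counts in WT. Its share of the gene's counts was 98.5% in dE3 (exact binomial interval 98.2% to 98.7%), 69.0% in cKO (56.9% to 79.5%) and 98.3% in WT (90.8% or more). Wif1-202 (6 exons, 1493 bases), annotated as a retained intron, took the rest, with 149 counts in dE3, 22 counts in cKO and 1 count in WT. The cKO library therefore had a larger share of this non-coding form, at 31.0% (20.5% to 43.1%), against 1.53% in dE3 and 1.72% in WT. For the coding transcript alone the ratio was 153 (118 to 202) in dE3 against WT and 0.832 (0.556 to 1.24) in cKO against WT. For Wif1-202 alone the ratio of dE3 to cKO was 6.38 (4.06 to 10.5). Transcript counts are the quantifier's estimates, and shares at 71 or 58 counts rest on few reads.

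Notum (ENSMUSG00000042988, chromosome 11, 120653788 to 120661175, minus strand) encodes the carboxylesterase that removes the Wnt lipid. Its counts were 4600 in dE3, 124 in cKO and 58 in WT, which is 131 CPM in dE3, 3.75 CPM in cKO and 1.82 CPM in WT. It was 72.3-fold higher in dE3 than in WT (55.8 to 95.4), rank 12 by log2 ratio, and 35-fold higher in dE3 than in cKO (29.2 to 42.1). In cKO it was 2.07-fold higher than in WT (1.5 to 2.88), just past the threshold. In CPM, the difference of cKO from WT was 0.0150 of the difference of dE3 from WT.

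The Notum counts were spread over several transcripts, and their mix differed between the libraries. The 11-exon coding Notum-202 (2212 bases) had 2395 counts in dE3, 46 counts in cKO and 50 counts in WT. Its ratio was 43.7 (33.0 to 59.0) in dE3 against WT and 0.890 (0.583 to 1.36) in cKO against WT. Notum-201 (7 exons, 1433 bases), annotated as a retained intron, had 1805 counts in dE3, 78 counts in cKO and 8 counts in WT. It was 206-fold higher in dE3 than in WT (104 to 477) and 9.43-fold higher in cKO than in WT (4.56 to 22.6). The higher Notum count of cKO thus lay in the retained-intron form, and without it the log2 ratio of cKO against WT was -0.17 and the gene was not called. Without Notum-202 the log2 ratio of dE3 against WT was 7.97, against 6.18 for the gene. Notum-201 made up 39.2% of the gene's counts in dE3 (37.8% to 40.7%), 62.9% in cKO (53.8% to 71.4%) and 13.8% in WT (6.15% to 25.4%). The short coding Notum-204 (7 exons, 728 bases) had 366 counts in dE3 and 0 counts in cKO and WT, so that against a floor of 3 counts per library it was at least 115-fold higher than in cKO and at least 111-fold higher than in WT.

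**Figure D2:**
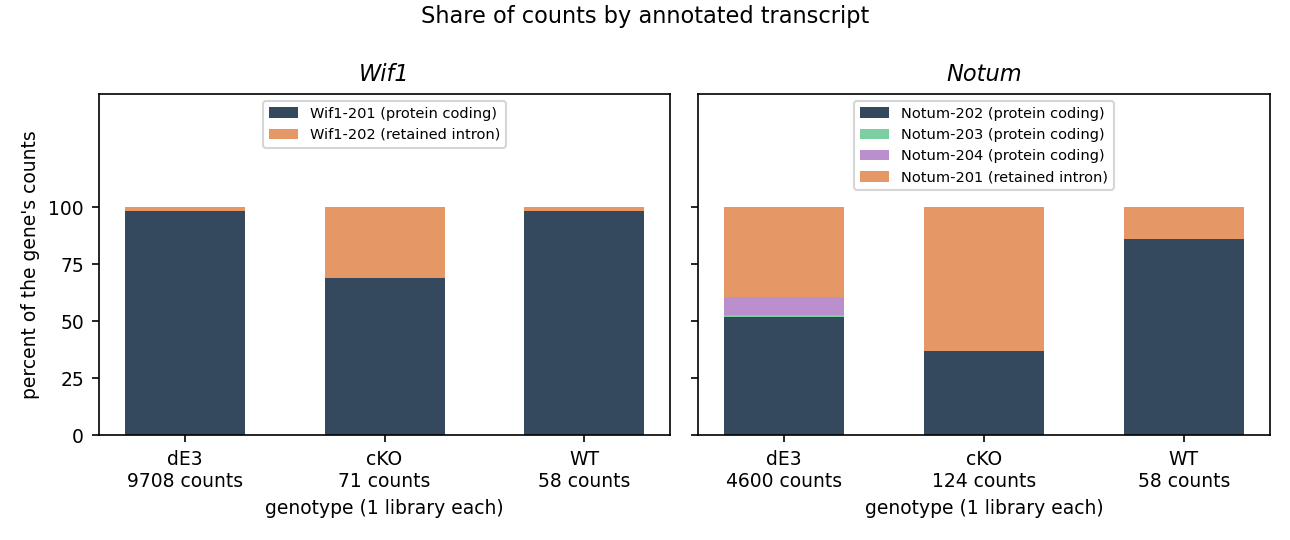
Percent of each gene's counts assigned to its annotated transcripts in dE3, cKO and WT (1 library each), for Wif1 and Notum, with the gene's total counts under each bar. Retained-intron forms, in orange, take 31.0% of Wif1 counts and 62.9% of Notum counts in cKO.

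Antisense genes overlap Notum, and no source used here says whether strand was used in counting. Notumos, on the plus strand at 120659157 to 120661815, shares 708 of the 2408 exon bases of Notum (29.4%). It had 1348 counts in dE3, 40 counts in cKO and 20 counts in WT. Myadml2os shares 210 bases (8.72%) and had 113 counts in dE3, 4 counts in cKO and 3 counts in WT. Reads of Notum and these partners cannot be told apart where they overlap. Notum-201 shares 0 bases with Notumos exons and 210 (14.7%) with those of Myadml2os, while Notum-202 shares 612 bases (27.7%) with Notumos. The part of antisense reads in the Notum counts was not tested.

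RNA of Dkk1, Dkk2 and Dkk4, whose proteins bind LRP5 and LRP6, was called higher in dE3 than in WT, with Dkk4 measured only through its dE3 count. The 3 genes summed to 8.31 TPM in dE3, where Wif1 and Notum summed to 509 TPM. Dkk1 (ENSMUSG00000024868, chromosome 19, 30545863 to 30549665, minus strand), the prototype LRP6 ligand, had 72 counts in dE3, 36 counts in cKO and 28 counts in WT. That is 2.05 CPM in dE3, 1.09 CPM in cKO and 0.876 CPM in WT. The ratio was 2.34 (1.5 to 3.77) in dE3 against WT and 1.24 (0.738 to 2.12) in cKO against WT. In dE3 against cKO it was 1.88 (1.25 to 2.90), under the threshold of 2. On the authors' TPM with a pseudocount of 1 the log2 ratio of dE3 against WT was 0.72 and the call was lost.

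Dkk2 (ENSMUSG00000028031, chromosome 3, 132085292 to 132180304, plus strand), a weaker antagonist that can also activate LRP6 in some settings, had 267 counts in dE3, 108 counts in cKO and 78 counts in WT. Its level was 7.62 CPM in dE3, 3.27 CPM in cKO and 2.44 CPM in WT. Per length it was the most abundant LRP-binding DKK gene in each library, at 5.11 TPM in dE3, 2.17 TPM in cKO and 1.61 TPM in WT. It was 3.12-fold higher in dE3 than in WT (2.42 to 4.07) and 2.33-fold higher in dE3 than in cKO (1.86 to 2.94). On the authors' TPM with a pseudocount of 1 the log2 ratio of dE3 against cKO was 0.95 and that call was lost. In cKO against WT the ratio was 1.34 (0.992 to 1.82).

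Dkk4 (ENSMUSG00000031535, chromosome 8, 22624043 to 22627547, plus strand), a DKK known as a Wnt/β-catenin target in ectodermal organs, was detected in dE3 only. It had 21 counts in dE3 (0.599 CPM) and 0 counts in cKO and WT, where 3 counts would be 0.0908 CPM and 0.0939 CPM. Against that floor the dE3 level was at least 6.60-fold higher than that of cKO and at least 6.38-fold higher than that of WT. No ratio of cKO to WT can be given. Its dE3 level rests on 1 more count than the minimum for a measured gene.

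Dkk3, unlike the other DKK genes, was not called in any comparison. Dkk3 (ENSMUSG00000030772, chromosome 7, 112116017 to 112159057, minus strand) had 892 counts in dE3, 1070 counts in cKO and 919 counts in WT. The levels of 25.5 CPM in dE3, 32.4 CPM in cKO and 28.8 CPM in WT gave ratios of 0.885 (0.806 to 0.971) for dE3 against WT and 1.13 (1.03 to 1.23) for cKO against WT. It was the most abundant DKK gene in each library, at 18.9 TPM in dE3, 23.8 TPM in cKO and 21.0 TPM in WT. For that reason the summed TPM of the 4 DKK genes hardly differed, at 27.2 in dE3, 27.1 in cKO and 23.5 in WT. Without Dkk3, the sum was 8.31 TPM in dE3, 3.28 TPM in cKO and 2.48 TPM in WT.

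**Figure D3:**
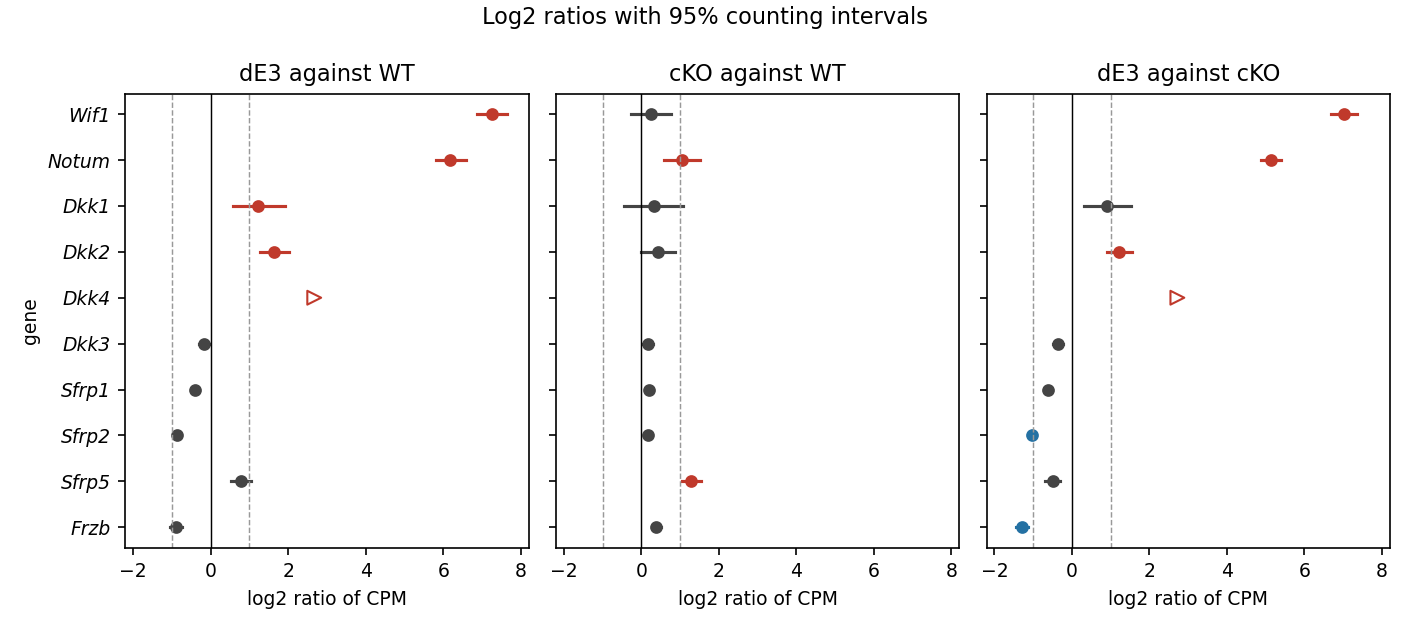
Log2 ratio of CPM for each gene with its 95% counting interval, with a panel for dE3 against WT, then cKO against WT, then dE3 against cKO. Red marks genes called higher, blue genes called lower and grey neither. Dashed lines mark a 2-fold ratio, and the open triangle for Dkk4 is its ratio against the floor of 3 counts. Wif1 and Notum exceed 5 log2 units in both comparisons that have dE3 on top.

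Among the SFRP family, Sfrp1, Sfrp2 and Frzb stood lowest in dE3 and highest in cKO. Sfrp2 (ENSMUSG00000027996, chromosome 3, 83766321 to 83774316, plus strand), the most abundant antagonist RNA of the WT library, had 1462 counts in dE3, 2839 counts in cKO and 2454 counts in WT. Its level was 41.7 CPM in dE3, 86.0 CPM in cKO and 76.8 CPM in WT. It was 2.06-fold lower in dE3 than in cKO (1.93 to 2.20), a call that just passed the threshold. Against WT the dE3 ratio was 0.543 (0.509 to 0.580) and the cKO ratio 1.12 (1.06 to 1.18), neither past it. Sfrp2-201 took 1460 of the counts in dE3, 2830 in cKO and 2451 in WT, and the few counts of the other transcripts gave no call in dE3 against cKO. The antisense gene Gm26771 shares 347 of the 2153 exon bases of Sfrp2 (16.1%) and had 44 counts in dE3, 55 counts in cKO and 32 counts in WT.

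Frzb (ENSMUSG00000027004, chromosome 2, 80411970 to 80447625, minus strand), also known as Sfrp3 and first described in cartilage, had 526 counts in dE3, 1212 counts in cKO and 894 counts in WT. The corresponding levels were 15.0 CPM in dE3, 36.7 CPM in cKO and 28.0 CPM in WT. It was 2.45-fold lower in dE3 than in cKO (2.21 to 2.71). The ratio to WT was 0.536 (0.481 to 0.598) in dE3 and 1.31 (1.20 to 1.43) in cKO. Frzb and Sfrp2 had the lowest ratios of dE3 to WT among the 10 genes, and both fell short of a 2-fold ratio. Frzb-201 took 519 counts in dE3, 1203 counts in cKO and 893 counts in WT. Frzb-202, with 7 counts in dE3, 9 counts in cKO and 1 count in WT, gave no call in dE3 against cKO.

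Sfrp1 (ENSMUSG00000031548, chromosome 8, 23411502 to 23449632, plus strand), a Wnt-binding protein of neural progenitors, had 1326 counts in dE3, 1906 counts in cKO and 1598 counts in WT. At 37.8 CPM in dE3, 57.7 CPM in cKO and 50 CPM in WT, its ratio was 0.757 (0.703 to 0.814) in dE3 against WT, 1.15 (1.08 to 1.23) in cKO against WT and 0.656 (0.611 to 0.703) in dE3 against cKO. No call was made in any of the 3 comparisons.

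Sfrp5 was the family member that differed, being lowest in WT. Sfrp5 (ENSMUSG00000018822, chromosome 19, 42197971 to 42202252, minus strand) had 362 counts in dE3, 483 counts in cKO and 192 counts in WT. It was 2.43-fold higher in cKO than in WT (2.06 to 2.89), at 14.6 CPM in cKO against 6.01 CPM in WT. In dE3, at 10.3 CPM, the ratio to WT was 1.72 (1.44 to 2.06) and the ratio to cKO 0.706 (0.615 to 0.811). The difference of cKO from WT was 1.99 times that of dE3 from WT in CPM, whereas this quotient was 0.182 for Dkk1, 0.160 for Dkk2, 0.0150 for Notum and 0.00122 for Wif1. Dkk1, Dkk2, Dkk3, Dkk4, Sfrp1 and Sfrp5 had 1 transcript each in the table.

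Summed over Sfrp1, Sfrp2, Sfrp5 and Frzb, the family stood at 105 CPM in dE3, 195 CPM in cKO and 161 CPM in WT. The ratio of those sums was 0.652 (0.625 to 0.681) in dE3 against WT, 1.21 (1.17 to 1.26) in cKO against WT and 0.538 (0.516 to 0.560) in dE3 against cKO. In bulk tissue, fewer cells of a type and less RNA per cell cannot be told apart.

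Per length, the order of the antagonists in dE3 was unlike that in the other libraries. In WT it ran Sfrp2 (94.4 TPM), Sfrp1 (28.0), Frzb (21.8), Dkk3 (21.0), Sfrp5 (7.74), Notum (2.11), Wif1 (1.93), Dkk2 (1.61), Dkk1 (0.873) and Dkk4 (0). The cKO library had the same order, with Sfrp2 at 107 TPM, Notum at 5.62 TPM and Wif1 at 2.64 TPM. In dE3 Wif1 came to the top at 304 TPM and Notum next at 204 TPM, before Sfrp2 at 52.0 TPM and Sfrp1 at 21.5 TPM. Neighbours such as Frzb and Dkk3 in WT stand too close to be ordered from 1 library. The 10 genes summed to 635 TPM in dE3, 223 TPM in cKO and 179 TPM in WT, a TPM ratio of 3.54 for dE3 against WT and 1.24 for cKO against WT. Wif1 and Notum made up 80.1% of that sum in dE3, 3.70% in cKO and 2.25% in WT. The SFRP family made up 15.6% in dE3, 84.2% in cKO and 84.7% in WT.

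**Figure D4:**
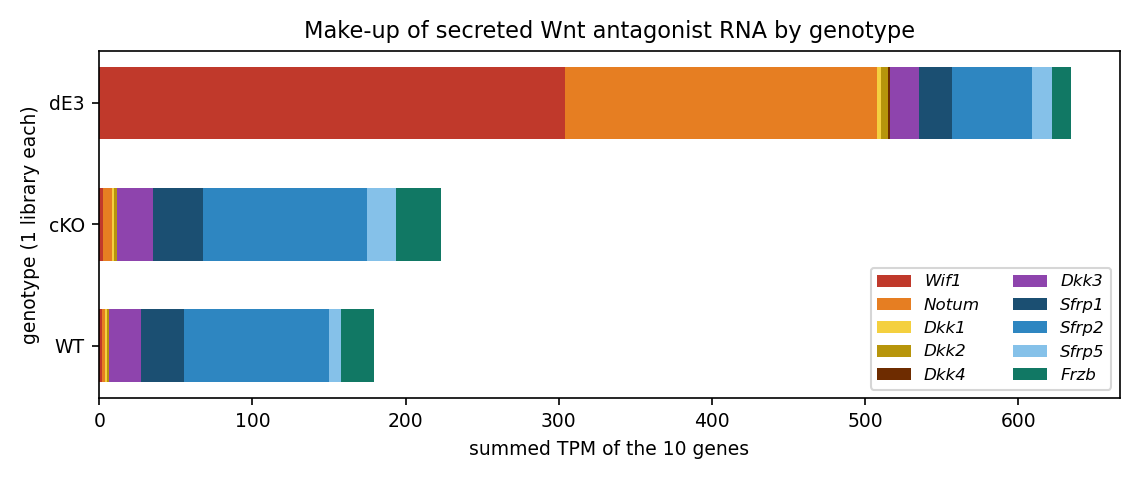
Summed TPM of the 10 genes in dE3, cKO and WT (1 library each), with each gene's part in colour. The bar is longest in dE3, at 635 TPM against 223 TPM in cKO and 179 TPM in WT, and Wif1 and Notum fill 80.1% of it, while Sfrp2 is the largest part in cKO and WT.

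Other genes that tune Wnt signals at the cell surface included 3 called in dE3 against WT. Of 19 listed modulators 16 were measured, and against WT 3 were higher in dE3 and 0 lower, with a median log2 ratio of 0.51. None of the 16 was called in cKO against WT, where the median was 0.17, and 4 were higher and 1 lower in dE3 than in cKO. Over all measured genes 6.52% were higher and 3.78% lower in dE3 against WT, and 3.48% and 3.41% in cKO against WT. For dE3 against cKO the shares were 6.62% and 4.38%. Sostdc1, a secreted LRP-binding inhibitor, had 17.9 CPM in dE3, 3.82 CPM in cKO and 4.19 CPM in WT, a ratio of 4.27 (3.53 to 5.18) for dE3 against WT. Apcdd1, a membrane-bound Wnt inhibitor, had 561 CPM in dE3, 148 CPM in cKO and 133 CPM in WT, and was 4.22-fold higher in dE3 than in WT (4.09 to 4.37). Gpc3, a glypican of the cell surface, had 112 CPM in dE3, 79.1 CPM in cKO and 44.4 CPM in WT. Its ratio to WT was 2.52 (2.37 to 2.68) in dE3 and 1.78 (1.67 to 1.90) in cKO, the latter not called. Kremen2, a receptor through which DKK proteins remove LRP6, had 2.23 CPM in dE3, 0.848 CPM in cKO and 1.13 CPM in WT, with a ratio of 1.98 (1.31 to 3.02) for dE3 against WT.

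Receptors that the antagonists act on showed 2 calls among 13 measured genes in dE3 against WT, both higher, and 0 in cKO against WT. Their median log2 ratio to WT was 0.57 for dE3 and 0.22 for cKO. Of all measured genes, 6.52% were called higher and 3.78% lower in dE3 against WT, and 3.48% and 3.41% in cKO against WT. Fzd10 had 327 CPM in dE3, 34.6 CPM in cKO and 42.8 CPM in WT, and was 7.64-fold higher in dE3 than in WT (7.22 to 8.08). Lrp4, which also binds Wnt inhibitors, was 2.79-fold higher in dE3 than in WT (2.62 to 2.96). The DKK receptors, named here for that role after their values were seen, were not called. Lrp6 had 121 CPM in dE3, 110 CPM in cKO and 111 CPM in WT, and Lrp5 had 31.7 CPM in dE3, 27.2 CPM in cKO and 19.8 CPM in WT.

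Wnt ligands, which WIF1 and the SFRP proteins bind, had calls in both directions. Against WT, 6 of 17 measured ligands were higher and 3 lower in dE3, with a median log2 ratio of 0.01. In cKO, 3 were higher and 1 lower than in WT, with a median of 0.37. The shares over all measured genes were 6.52% higher and 3.78% lower for dE3, and 3.48% and 3.41% for cKO. Wnt10a had 320 counts in dE3, 6 counts in cKO and 2 counts in WT, a ratio of 146 for dE3 against WT with a wide interval (40.1 to 1210). Wnt1, a roof plate ligand, was 4.16-fold lower in dE3 than in WT (2.91 to 6.09). Wnt7b was 3.25-fold lower in dE3 than in WT (3.0 to 3.51), at 24.2 CPM in dE3, 64.2 CPM in cKO and 78.7 CPM in WT. Wnt8b was called lower in both mutants, with 10 counts in dE3, 12 counts in cKO and 30 counts in WT. It was measured only through its WT count, on which both calls rest, and Wnt10a only through its dE3 count. The latter held too for Wnt10b, called higher in dE3, with 21 counts in dE3, 8 counts in cKO and 6 counts in WT. Wnt2, called higher in cKO, was measured only through its cKO count, with 16, 22 and 9 counts in that order. Wnt16, called higher in both mutants, was measured through them only, with 22, 31 and 8 counts.

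Among the Wnt pathway lists, feedback genes that act inside the cell or at its membrane had the most genes called higher in dE3. Against WT, 9 of its 14 measured genes were higher in dE3 and 0 lower, with a median log2 ratio of 1.81. In cKO against WT 0 were called in either direction, with a median of 0.19. All measured genes had 6.52% higher and 3.78% lower in dE3 against WT, and 3.48% and 3.41% in cKO against WT. The list, chosen with results of these libraries known, is no independent evidence of direction. The largest ratios were those of Rnf43, which encodes a ligase that removes Frizzled receptors, and of Sp5, Nkd1 and Lef1. Rnf43 had 21.0 CPM in dE3, 0.666 CPM in cKO and 0.501 CPM in WT. Nkd1, an intracellular inhibitor, had 804 CPM in dE3, 48.6 CPM in cKO and 48.9 CPM in WT. The transcription factor Sp5 had 59.8 CPM in dE3, 2.91 CPM in cKO and 1.56 CPM in WT, and Lef1, a TCF/LEF factor, 73.1 CPM in dE3, 7.12 CPM in cKO and 4.94 CPM in WT. Summed over the list the level was 2055 CPM in dE3, 354 CPM in cKO and 326 CPM in WT, and the quotient of the cKO and dE3 differences from WT was 0.0165.

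**Figure D5:**
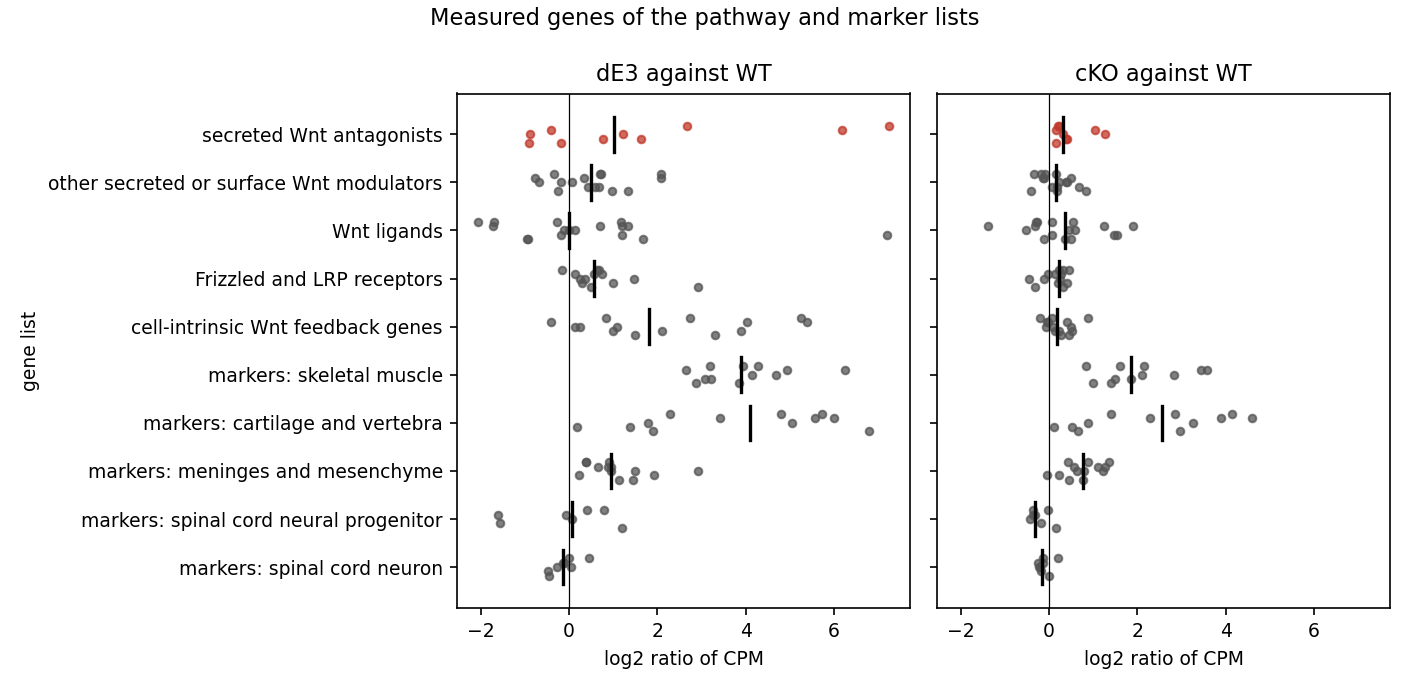
Log2 ratio of CPM for each measured gene (points) and the list median (bars), for the secreted antagonists (red), 4 lists of Wnt pathway genes and 5 lists of cell type markers, in dE3 against WT and cKO against WT. Antagonists spread from -0.90 to 7.25 in dE3 against WT, and muscle and cartilage markers lie high in both panels.

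Markers of several tissues that lie beside the cord also differed between the libraries. For the calls below, the shares over all measured genes were 6.52% higher in dE3 and 3.48% higher in cKO than in WT. Skeletal muscle markers summed to 192 CPM in dE3, 50.3 CPM in cKO and 14.6 CPM in WT. All 12 were called higher in dE3 than in WT, and 9 of 12 in cKO than in WT, and Tnni1, Tnnc2 and Ckm had 0 counts in WT and Ckm 0 counts in cKO. Cartilage and vertebra markers summed to 1207 CPM in dE3, 572 CPM in cKO and 266 CPM in WT, with 11 of 12 higher in dE3 and 8 of 12 in cKO than in WT and none at 0. Among them Col2a1, the main cartilage collagen, had 432 CPM in dE3, 234 CPM in cKO and 88.7 CPM in WT. For the summed levels, the quotient of the cKO and dE3 differences from WT was 0.201 (muscle) and 0.325 (cartilage). Single markers of a list can differ from the quotient of its sum. The part of both lists in the antagonist values was not tested.

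Markers of meninges and mesenchyme summed to 1434 CPM in dE3, 1640 CPM in cKO and 747 CPM in WT, with 5 of 13 higher in dE3 and 4 of 13 in cKO than in WT and none at 0. Like Sfrp5, this sum was highest in cKO and lowest in WT, with a quotient of 1.30. Most of it came from 3 collagen genes. In dE3, cKO and WT, Col3a1 had 476, 576 and 247 CPM, Col1a2 339, 443 and 183 CPM, and Col1a1 261, 353 and 139 CPM. The median log2 ratio of the 13 markers was 0.95 in dE3 against WT, 0.77 in cKO against WT and -0.02 in dE3 against cKO. The sum of endothelium markers was also highest in cKO and lowest in WT, at 214 CPM in dE3, 277 CPM in cKO and 194 CPM in WT. Of these markers 0 of 6 were called in either mutant against WT and none was at 0. The part of both lists in the Sfrp5 value was not tested. Epidermis markers summed to 37.6 CPM in dE3, 15.7 CPM in cKO and 15.1 CPM in WT, with 5 of 7 measured genes higher in dE3 than in WT and Krtdap at 0 in cKO and WT. The largest part of the dE3 sum was Edar, at 11.1 CPM in dE3, 0.242 CPM in cKO and 0.125 CPM in WT. Edar was measured only through its dE3 count. Among the markers not called was Krt10, at 6.28 CPM in dE3, 4.63 CPM in cKO and 5.10 CPM in WT. The quotient of the epidermis sum was 0.0267, and the part of these markers in the values of Wif1, Notum and Dkk4 was not tested.

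Within the cord, markers of neural progenitors summed to 1174 CPM in dE3, 999 CPM in cKO and 1175 CPM in WT. In dE3 against WT 1 of 7 was called higher and 2 lower, against 6.52% and 3.78% over all measured genes. Floor plate markers summed to 172 CPM in dE3, 400 CPM in cKO and 376 CPM in WT, and motor neuron markers to 45.3 CPM in dE3, 95.7 CPM in cKO and 69.9 CPM in WT. Ntn1 made up 157 CPM of the floor plate sum in dE3, 375 CPM in cKO and 356 CPM in WT, and was the only one of its 4 markers called lower in dE3 than in WT, while 0 of 4 motor neuron markers were. Dorsal root ganglion markers summed to 368 CPM in dE3, 654 CPM in cKO and 448 CPM in WT. Of them 4 of 8 were lower in dE3 than in cKO (4.38% over all measured genes) and 0 of 8 were called in dE3 against WT. These 3 lists, like Sfrp1, Sfrp2 and Frzb, were lowest in dE3 and highest in cKO. None of their markers was at 0 in any library, and their part in the SFRP values was not tested. Roof plate markers summed to 54.6 CPM in dE3, 28.7 CPM in cKO and 28.1 CPM in WT, of which Msx1 alone gave 47.1 CPM in dE3, 10.2 CPM in cKO and 14.2 CPM in WT. Msx1 was called higher and Wnt1 lower in dE3 against WT, and the median log2 ratio of the 5 was -0.29.

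Genes whose pattern was most like that of Wif1, Notum, Dkk1 and Dkk2, the antagonists called higher in dE3 than in WT that have a ratio in both mutants, were found by the distance between their log2 ratios in dE3 against WT and cKO against WT, over 12553 or 12554 named genes with at least 100 counts in a library. The measure rests on 3 libraries, the genes share those libraries, and it says nothing of a shared role. Wif1 had no gene within a distance of 0.5. The nearest was Mybpc1, a myosin-binding protein of slow muscle, at a distance of 0.790 and with 499 CPM in dE3, 2.88 CPM in cKO and 1.97 CPM in WT. Edar, an ectodysplasin receptor of ectodermal organs that is also among the epidermis markers above, and Wnt10a came next. For Notum the nearest were its antisense partner Notumos at 0.254 and Edar at 0.313, followed by Sp5 at 0.933. Edar had 11.1 CPM in dE3, 0.242 CPM in cKO and 0.125 CPM in WT. The smaller ratios of Dkk1 and Dkk2 were common ones, with 373 genes within 0.5 of Dkk1 (Uhrf1, Phldb2 and Clybl nearest) and 136 within 0.5 of Dkk2 (Lrig3, Tacr3 and Mst1r nearest).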

How the data were processed

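Spinal cord RNA was extracted with Trizol and made into mRNA-seq libraries with a VAHTS kit, per the labels' protocols, 1 library per genotype. Bowtie2 2.3.2, CASAVA and GRCm38.p6 are named, without roles, in the submitters' processing notes. What quantified the reads, and whether strand was used, is not stated there. The authors deposited estimated counts, TPM and FPKM per gene and per transcript, as the units are named per the file headers. These estimated counts, whole numbers as deposited, were used unaltered, and gene counts equalled the sums of their transcripts. The authors' TPM values ordered genes within a library and served as an alternative on the scale log2(TPM + 0.1). The deposited FPKM values were not used in any result.

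Counts were scaled with TMM factors (edgeR 4.0.16, R 4.3.3) of 1.0074 (dE3), 0.9992 (cKO) and 0.9934 (WT), computed on genes with at least 20 counts in at least 1 library. Each ratio was given a 95% interval from the exact binomial (Clopper-Pearson) distribution of either library's count given the sum of both (scipy 1.17.1). No molecular identifiers are named for the reads, so intervals and floors take in counting error alone. A count of 0 was set against a floor of 3 counts per library, so that its ratio is a bound at that floor and not a 95% limit. With 1 library per genotype there is no spread between replicates, and no p-value was computed.

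The members and lists were chosen with earlier results of these data known. All 10 members are named. From each pathway list up to 4 genes called in any comparison are named, by largest absolute log2 ratio of dE3 against WT. From each marker list the counts and sums are given, with at most 3 markers by CPM in dE3. The 3 nearest genes in pattern are named for each member called in dE3 against WT, except Dkk4, which has no ratio of cKO to WT. Overlaps and 50-base words were computed on GENCODE vM21 transcripts. Notum shared 29.5% of its words with other genes, Sfrp2 12.0% and Dkk1 1.18%, and the other members under 1%. Alternatives were RLE factors, total counts, no minimum or 100 counts as minimum, TPM with a pseudocount of 0.1 or 1, folds of 1.5 and 4, and leaving out the transcript that differed most.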

Additional observations from a re-analysis of the deposited data

How the results depend on the processing

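Of 181 alternative values of the members' log2 ratios, 166 stayed within the 95% counting interval, 14 moved beyond it, and 1 called value reversed. Among the 166, the 29 values with no minimum count and the 24 with a minimum of 100 counts could not move. A minimum count changes which genes are measured and not their ratios. With RLE factors, total counts or the authors' TPM with a pseudocount of 0.1, all 29 values of each setting stayed within the interval. Of the 14 that moved, 5 did so with a TPM pseudocount of 1 and 9 without the transcript that differed most. In that last setting Notum reversed in cKO against WT to a log2 ratio of -0.17, and that transcript is its retained-intron form. There, 0 members were lower in dE3 than in cKO. Sfrp2 and Frzb then rest on minor transcripts with few counts, and Frzb, with 9 counts in cKO against 1 count in WT, was called higher in cKO at 3.12. The uncalled log2 ratio of Frzb in dE3 against WT also turned sign there, to 2.67 against -0.90. With a minimum of 100 counts 3 members were higher in dE3 than in WT, and among Wnt ligands 1 was higher and 0 were lower in cKO than in WT. A fold of 4 left 3 members higher in dE3 than in WT, 0 higher in cKO than in WT and 0 lower in dE3 than in cKO. A fold of 1.5 made 2 members lower in dE3 than in WT. On the authors' TPM with a pseudocount of 1, Dkk1 in dE3 against WT (0.72) and Dkk2 in dE3 against cKO (0.95) lost their calls. No library could be left out, since each genotype has 1. No paired analysis was possible because each genotype has 1 library. Depth limits Dkk4, Dkk1 and the cKO and WT values of Wif1 and Notum most.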
